A study of Mus musculus with 6 samples.

Results

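Domain boundary bins are the places on a chromosome that few Hi-C contacts cross, and 1581 of the 24067 autosomal bins met this definition in control B-cell progenitors of the mouse. They were chosen on the summed raw counts of the 4 control libraries. For each bin of about 100 kb, the mean count of the 25 bin pairs that join the 5 bins before it to the 5 bins after it was divided by the mean of the same quantity over the 41 bins centred on it, and the log2 of this ratio is called insulation. A boundary bin was the lowest of the 7 bins centred on it, had an insulation under -0.3, and had total contacts of 0.3 to 3 times the autosomal median. Of 23646 bins within these coverage limits, 2309 were lowest among 7. A lower insulation means fewer contacts across the bin, and is called stronger insulation here.

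In situ Hi-C joins pieces of DNA that neighbour each other in fixed nuclei, and each joined pair is read as a contact. Lineage-negative bone marrow cells of mice on the C56BL/6 background (so spelled in the labels) grew on a layer of OP9 stroma for 8 days, supplied with the cytokines IL7, SCF and FL, before selection for B220+ cells. There were 3 genotypes with 2 biological replicates each. The Erg KO libraries came from Rag1CreT/+;Erg fl/fl mice (1 female and 1 male library), the CreT control from Rag1CreT/+ mice with intact Erg (both female), and the Erg fl/fl control from Rag1Cre+/+;Erg fl/fl mice that lacked the transgene (1 female and 1 male library). The study's Rag1Cre allele acts in lymphoid cells, so Erg, an ETS family transcription factor, was lost from early lymphoid progenitors and not from the whole animal. The study describes the cells without Erg as pre-proB cells and its wild-type cells as proB cells, so that loss of Erg and developmental stage cannot be told apart here. The study gives a general age range for its mice and no age for each of these libraries. The deposited counts summed to 29014581 to 68085468 read pairs per library, fewer than the sequencing depth the study describes, with Erg fl/fl control replicate 2 the smallest. The share of autosomal read pairs that joined different chromosomes was 32.3% and 34.6% for Erg KO and 21.6% to 26.8% for the controls.

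Mammalian chromosomes are folded into domains within which contacts are frequent. Cohesin is thought to extrude loops of chromatin until it meets CTCF bound to its motif, and it is halted best by motifs that point towards the loop. A boundary between neighbouring loops therefore often holds a motif on the minus strand followed by a motif on the plus strand, so that the motifs point away from each other. At a coarser scale, gene-rich chromatin (the A compartment) and gene-poor chromatin (the B compartment) contact their own kind, and domain borders often lie where the compartment changes.

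Exact matches to the core consensus of the CTCF motif, known by that name, were searched in the mm10 genome (GRCm38) on both strands. The sites below lie in the 4 boundary bins with the lowest control insulation that hold a minus-strand match followed by a plus-strand match and have no bin outside the coverage limits within 5 bins, among the autosomes from which sequence is shown. They are shown because they display the divergent order described above. Each is written 5′ to 3′ on its own strand, with the matched 14 bases in capitals and 8 bases of flank on either side.
chr5:134006947-134006960, minus strand: agctttgaCCAGTAGATGGCACtgtggttg
chr5:134063869-134063882, minus strand: ggagatggCCACTAGGGGGCGCtccgaatc
chr5:134076391-134076404, minus strand: caaggaggCCAGCAGATGGCGCtagagccc
chr5:134078634-134078647, plus strand: cttggtctCCAGTAGGTGGCACtgtttggg
chr5:125507770-125507783, minus strand: acaggcctCCAGCAGGTGGCGCtgtttggg
chr5:125509709-125509722, minus strand: gaatcctaCCACTAGGGGGCAGcagggaga
chr5:125561749-125561762, plus strand: ctcaatgcCCAGCAGGTGGCACtgtggaga
chr6:31639654-31639667, minus strand: actctgggCCACCAGATGGCGGgcacaagc
chr6:31664649-31664662, plus strand: cgagagtaCCAGCAGGGGGCAGtggcacct
chr4:151141719-151141732, minus strand: gcatctgtCCACCAGAGGGCAGcccaggat
chr4:151157137-151157150, plus strand: atgactggCCACCAGGTGGCGCtaaatgac
The first 4 sites lie in the boundary bin chr5:134000193-134100012, which holds the start of Castor2, a relative of an arginine sensor of the mTORC1 pathway. The next 3 lie in chr5:125499960-125600225, which holds the start of Tmem132b. The bins chr6:31599677-31699933 and chr4:151099772-151200046 hold no protein-coding start. A match is a sequence only, and no binding of CTCF was measured.

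These 4 bins had 3.11 to 4.03 times fewer contacts across them than their surroundings in the summed controls. In the bin of Castor2, insulation was -2.06 and -2.46 in CreT controls, -1.93 and -1.56 in Erg fl/fl controls, and -2.59 and -2.65 in Erg KO. In the bin of Tmem132b it was -2.06 and -2.32 in CreT controls, -1.92 and -1.31 in Erg fl/fl controls, and -2.65 and -2.45 in Erg KO. In both bins Erg KO was lower than each control library, and Erg fl/fl control replicate 2 was the highest.

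The median boundary bin had an insulation of -0.68 in the summed controls, which is 1.61 times fewer contacts across it than in its surroundings, with quartiles of -1.0 and -0.47 and a lowest value of -4.28. These values chose the bins and are given as a description. Neighbouring boundary bins lay a median of 1.2 Mb apart, with quartiles of 0.801 and 1.9 Mb and a longest gap of 8.2 Mb. They made up 5.98% of the bins within the coverage limits on chromosome 14 and 7.53% on chromosome 13, with the other autosomes between. The 3 boundary bins nearest to the threshold had insulations of -0.3005, -0.3007 and -0.3017, and the 3 local minima just outside it -0.2996, -0.2992 and -0.2986. A median of 331 read pairs crossed a boundary bin in Erg fl/fl control replicate 2 and of 544 in CreT control replicate 1, with Erg KO at 431 and 400. Median counts across all bins within the limits were 493 to 852.

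The lowest 10 boundary bins all had a bin outside the coverage limits within 5 bins, and 7 of them had fewer contacts than the median bin. Among the 10 were chr7:39100900-39199876 (-3.83), with no protein-coding start, chr8:20812179-20900391 (-3.38), with the start of the defensin gene Defb33, and chr14:25799943-25899860 (-3.13), with that of the annexin gene Anxa11. Such a bin was near 87 of the 1581 boundary bins, whose median insulation was -1.36, against -0.66 for the other 1494.

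Among those 1494, a selection made after the values were seen, the 10 lowest had insulations of -2.88 to -2.01 and all 10 lay where the compartment score changed sign. The bin chr3:90700802-90799455, with the start of Pglyrp4, which recognises bacterial peptidoglycan, had -3.21 and -2.98 in Erg KO, -2.66 and -2.75 in CreT controls and -2.40 and -2.28 in Erg fl/fl controls. The bin chr12:69099800-69199802 holds 6 starts, among them those of the ribosomal protein genes Rps29 and Rpl36al and of Mgat2, an enzyme of N-glycan synthesis, and had -2.66 and -2.87 in Erg KO and -1.69 to -2.54 in the controls. The bin chr8:112000187-112100667 holds the starts of Kars, which charges lysine tRNA, and of Terf2ip, a telomere protein, and had -2.34 and -2.49 in Erg KO and -2.02 to -2.28 in the controls. In these 3 bins Erg KO was lower than each control library, and the first 2 passed the test described further on, while the bin of Kars did not (edgeR adjusted p = 0.0714). Both calls were lost with DESeq2 (adjusted p of 0.0806 and 0.0754) and when 1 library was left out. For the bin of Pglyrp4 this was Erg KO replicate 1 (change -0.55, against -0.61 with all libraries). For that of Rps29 it was the second replicate of Erg KO or of the Erg fl/fl control (change -0.33 in both fits, against -0.60). These are the only male libraries, and with sex in the model the 2 fits rest on the same female libraries. The keratin bin chr11:100200149-100300339 (Krt14, Krt16, Krt17, Krt42) had -1.56 and -2.09 in Erg KO and -2.0 to -2.14 in the controls, so the groups overlapped. Its change of 0.32 passed as weaker but was -0.02 without Erg KO replicate 1. TMM scaling gave -0.26, but it leaves out the local mean and so compares scaled counts across the bin and not insulation.

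Boundary bins were richer in genes than the autosomes as a whole. A protein-coding gene started in 797 of the 1581 boundary bins (50.4%) and in 41.6% of all bins within the limits, with 1.02 and 0.859 starts per bin, a ratio of 1.19. The ratio ran from 1.04 with a local mean of 81 bins to 1.38 when counts were corrected for the coverage of bins, a correction that divides each count by the total contacts of both its bins. Starts per bin peaked in the boundary bin itself, with 0.946 in the bin before and 0.884 in the bin after it. They stood at 0.776 to 0.907 at distances of 2 to 6 bins and at 0.817 to 0.909 at 7 to 10 bins. In the 5 equal groups of bins by GC content, from lowest to highest, boundary bins held 0.372, 0.585, 0.884, 1.16 and 1.90 starts, and all bins of the same group 0.239, 0.466, 0.714, 0.993 and 1.88. The excess was therefore seen in the 4 lower groups and was nearly absent in the richest. Mean GC content was 42.2% in boundary bins and 41.9% in all bins. Bins with 4 or more starts were no more frequent among boundary bins, at 5.82% against 5.77%. When boundary bins were split into 4 groups by insulation, the lowest held 1.05 starts per bin and the highest 1.02.

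CTCF consensus matches were also more frequent, at 0.448 per boundary bin against 0.265 per bin over all bins, and 33.1% of boundary bins held at least 1 match, against 20.6%. This held within each GC group, with 0.101, 0.248, 0.376, 0.550 and 0.857 matches in boundary bins and 0.0519, 0.118, 0.200, 0.323 and 0.630 in all bins. The strands were arranged asymmetrically. In the bin before a boundary, minus-strand matches stood at 0.200 per bin and plus-strand matches at 0.116, whereas in the bin after it they stood at 0.102 and 0.206. A minus match followed by a plus match within the bin was found in 59 boundary bins (3.73%, against 1.55% of all bins), and the opposite order in 30 (1.90% against 1.12%). Boundary bins with a gene start held 0.527 matches and those without one 0.369.

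**Figure D1:**
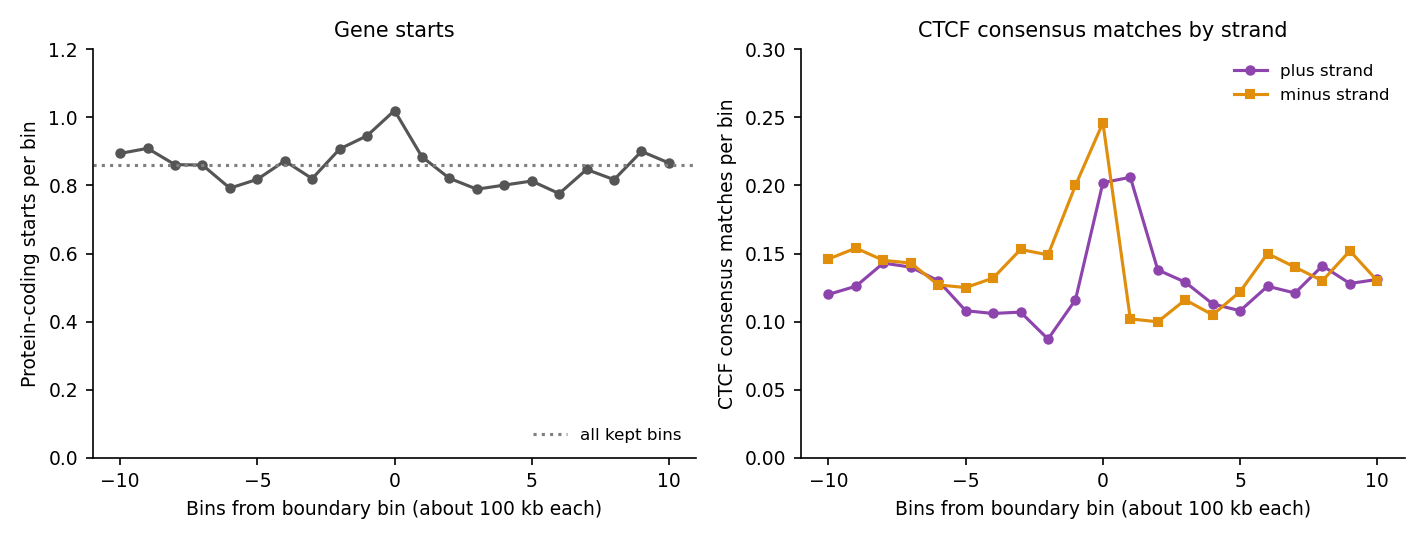
Protein-coding starts per bin (left) and exact CTCF consensus matches per bin by strand (right) against the distance from a boundary bin in bins of about 100 kb, averaged over the boundary bins of control cells. Starts peak at 1.02 in the boundary bin, minus-strand matches lead before it (0.200 in the bin before) and plus-strand matches after it (0.206 in the bin after).

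The gene lists were read by the bin in which each gene starts. Of 20185 protein-coding genes in bins with an insulation value, 7.99% started in a boundary bin and 22% within 1 bin of one. None of the 20 measured B-lineage transcription factors and none of 15 pre-BCR and B-cell surface genes started in a boundary bin, and 4 and 5 of them started within 1 bin. The same count was 0 for 15 stromal genes of the OP9-like list, for 18 housekeeping genes and for 13 genes of cohesin and the CTCF machinery. Boundary bins held 2 of 13 genes of V(D)J recombination and repair, Lig4 and Dclre1c, which act in the joining of broken DNA ends. They also held Bcl11b among 15 T-lineage genes, Klrb1c among 15 myeloid and NK genes, and Cd34, Hoxa9 and Mecom among 13 stem and progenitor genes. Of 50 cytoplasmic ribosomal protein genes, 6 (12%) lay in boundary bins. Odorant receptors (100 of 1126, 8.88%, in 31 bins) and vomeronasal receptors (20 of 251, 7.97%, in 13 bins) lay near the share of all genes, and neighbours in such clusters share bins.

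In every library the median insulation dipped at the boundary bins and returned to the local level within 4 bins on either side. The medians were -0.76 and -0.76 in Erg KO, -0.70 and -0.73 in CreT controls, and -0.69 and -0.63 in Erg fl/fl controls. Both Erg KO medians were thus lower than those of all 4 controls, and Erg fl/fl control replicate 2 was the shallowest in both insulation and read pairs. The group means were -0.76 ± 0.01 (SD, n = 2) and -0.69 ± 0.04 (SD, n = 4), a difference of -0.07. At 5 bins before the boundary the order was turned, with 0.09 and 0.06 in Erg KO and 0.02 to 0.05 in the controls. Over all bins within the limits the medians were -0.06 and -0.07 in Erg KO and -0.08 to -0.11 in the controls. The turned order was thus not particular to the flanks of boundary bins. At the boundary bins the difference was -0.06 after thinning to equal depth, -0.07 after subtraction of the mean count between chromosomes, and only -0.01 with a local mean of 81 bins. Across the whole chromosomes, insulation varied as much in CreT controls (SD over bins 0.54 and 0.56) as in Erg KO (0.54 and 0.56), and somewhat less in Erg fl/fl controls (0.51 and 0.53).

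Since the control libraries had chosen these bins, the comparison was repeated at bins chosen on a group that took no part in it. At 1610 boundary bins chosen on the CreT control, the median insulation was -0.75 and -0.76 in Erg KO and -0.67 and -0.61 in Erg fl/fl controls, a difference of -0.11. At 1574 boundary bins chosen on the Erg fl/fl control, it was -0.74 and -0.75 in Erg KO and -0.69 and -0.72 in CreT controls, a difference of -0.04. At 1654 boundary bins chosen on Erg KO, it was -0.66 and -0.70 in CreT controls and -0.64 and -0.56 in Erg fl/fl controls. The groups did not overlap in any of the 3 comparisons at the deposited depths. The CreT control thus lay below the Erg fl/fl control as well. After thinning to equal depth, bins chosen on the Erg fl/fl control had -0.73 and -0.74 in Erg KO. The CreT controls had -0.70 and -0.73 there, so that these groups met. With the bins rechosen after thinning, the difference of Erg KO from the CreT control was -0.02. The first and second of these comparisons share the Erg KO libraries. Contacts between chromosomes took a median of 32.9% and 34.9% of the contacts of a boundary bin in Erg KO, 24.5% and 27.1% in CreT controls, and 24.6% and 21.1% in Erg fl/fl controls. Their part in these medians was not tested beyond the subtraction above, under which the 3 differences named first stood at -0.07, -0.11 and -0.04.

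**Figure D2:**
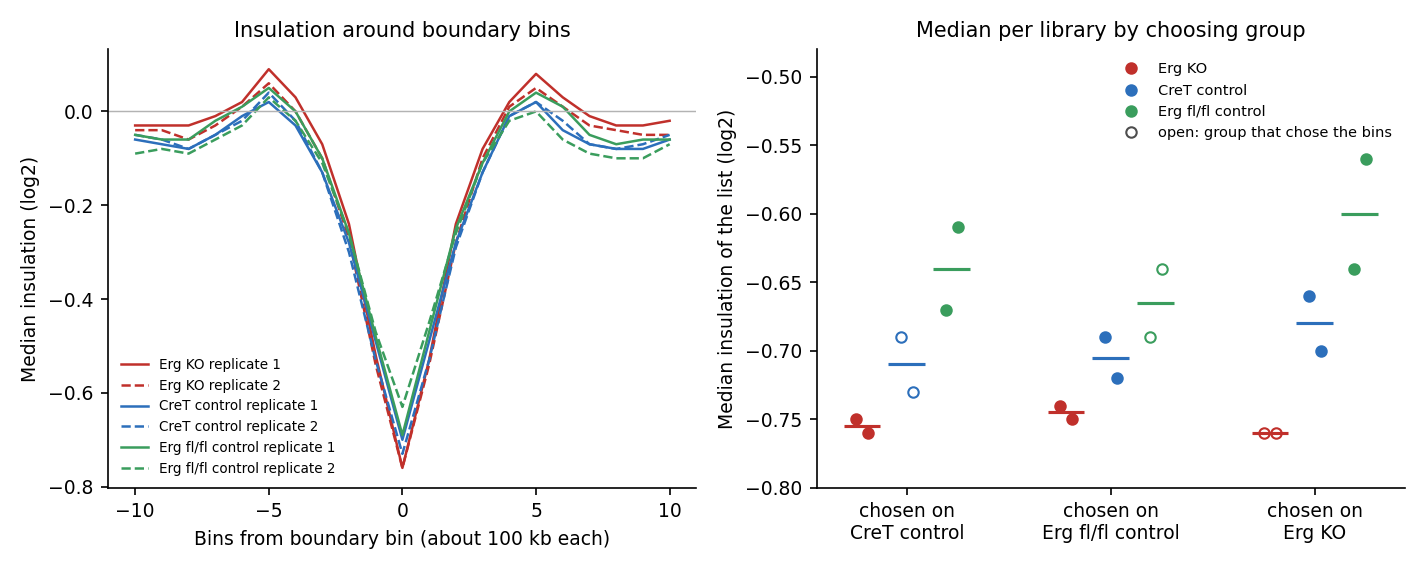
Median insulation (log2) by distance from the boundary bins of control cells for each of the 6 libraries (left), and the median over boundary bins chosen on the CreT control, the Erg fl/fl control or Erg KO, with 1 point per library and a bar at the mean of each genotype (right). Open points mark the group that chose the bins. Erg KO libraries lie lowest in each list, between -0.74 and -0.76, and the mean of the Erg fl/fl control is the highest.

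Single bins were compared with the quasi-likelihood test of edgeR on the counts across each bin, a model of group and sex, and Benjamini-Hochberg adjustment over all 23501 bins tested, which included all 1581 boundary bins. Of 1610 boundary bins chosen on the CreT control, 546 (33.9%) had stronger and 135 (8.39%) weaker insulation in Erg KO than in Erg fl/fl controls. The shares over all bins tested were 19.4% stronger and 19.7% weaker, so that stronger insulation was more frequent and weaker insulation less frequent at boundary bins than elsewhere. Both counts were smaller without Erg fl/fl control replicate 2, and also without Erg KO replicate 2. These are the only male libraries, so with sex in the model the 2 fits rest on the same female libraries. Corrected for coverage, 537 (33.4%) were stronger and 28 (1.74%) weaker, against 15.2% and 11.1% of all bins. Of 1574 boundary bins chosen on the Erg fl/fl control, 227 (14.4%) had stronger and 189 (12%) weaker insulation in Erg KO than in CreT controls, where the shares over all bins were 15.1% and 16.9%. The share of stronger bins was thus near that of all bins before the correction. Corrected for coverage, 204 (13%) were stronger and 41 (2.6%) weaker, against 7.14% and 6.22% of all bins. These counts depended on the model and on a single library. With group alone in the model edgeR called 0 bins in either direction, with an unadjusted p under 0.05 in 372, while DESeq2 called 31 stronger and 17 weaker and limma 230 and 195. TMM scaling without the local mean gave 428 and 311, and leaving out CreT control replicate 1 gave 69 and 79.

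No single bin passed between the controls. At 1652 tested boundary bins chosen on Erg KO, 0 differed between CreT and Erg fl/fl controls by edgeR, as over all bins (0%), and 374 (22.6%) had an unadjusted p under 0.05, against 17.5% of all bins. The count of calls was also 0 with limma and with DESeq2, 18 with the replicate number in place of sex, and 316 without Erg fl/fl control replicate 1. In that last fit Erg fl/fl control replicate 2 stood alone and was assumed to vary like the other groups.

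Against both controls together, 434 of the 1581 boundary bins had stronger insulation in Erg KO and 217 weaker, with a median change of -0.06 on the log2 scale and quartiles of -0.23 and 0.09. Over all bins tested, 20.6% were stronger and 22.4% weaker, and the median change was 0.02. Nothing is read from these counts alone, since the controls chose the bins. All 651 calls had the same sign against each control. Both Erg KO values were under all 4 control values in 448 boundary bins, or 28.3%, against 22.2% of all bins, and above them in 235, or 14.9%, against 24.5%. Correction for the coverage of bins left 454 stronger and 46 weaker boundary bins, against 14.6% and 11.2% of all bins. Under it, 347 bins were called stronger with and without the correction, and 39 weaker. Total contacts of gene-rich and gene-free boundary bins moved with the genotypes. In boundary bins with 4 or more starts they were 1.19 ± 0.0636 (SD, n = 2) times the library median for Erg KO and 1.33 ± 0.0492 (SD, n = 4) for the controls, and in those without a start 0.956 ± 0.00849 and 0.921 ± 0.00455. The part of coverage in the uncorrected counts was not tested further.

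Calls differed by gene content. Among 784 boundary bins without a protein-coding start, 171 (21.8%) were stronger and 142 (18.1%) weaker in Erg KO, and among 319 with 2 to 3 starts, 126 (39.5%) were stronger and 27 (8.46%) weaker. The median change was -0.02 without a start, -0.07 with 1 start, -0.14 with 2 to 3 and -0.11 with 4 or more. All bins tested moved alike, from 12.1% stronger and 28.3% weaker without a start to 38.0% stronger and 11.7% weaker with 2 to 3. The rise itself is thus not particular to boundary bins. With 1 start 28% of boundary bins were stronger and 10.4% weaker, against 27.5% and 16% of all such bins. With 4 or more these were 31.5% and 8.7%, against 38.1% and 12.6%. Before correction, stronger calls were thus clearly more frequent than over all bins only without a start. After correction for coverage the medians at boundary bins were -0.08, -0.10, -0.15 and -0.09, and those of all bins 0.00, -0.02, -0.06 and -0.05. At boundary bins chosen on the CreT control, the median of Erg KO minus the Erg fl/fl control was -0.06, -0.12, -0.23 and -0.15 in the same 4 classes, against 0.07, -0.04, -0.09 and -0.08 over all bins. At those chosen on the Erg fl/fl control, Erg KO minus the CreT control was 0.02, -0.04, -0.10 and -0.06, against 0.07, -0.04, -0.10 and -0.09 over all bins. These values matched with 1 start and with 2 to 3 starts. With all libraries 263 boundary bins with a start were stronger in Erg KO, and fewer were without Erg fl/fl control replicate 2. The share of all bins in that fit is not given, so the fall cannot be called particular to boundary bins.

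The counts also differed by compartment. The compartment score, computed per library from the pattern of contacts along a chromosome and positive on the gene-rich side, changed sign across 648 boundary bins (41%, against 19.8% of all bins), read from the 3 bins on either side in the controls. It was positive on both sides of 422 boundary bins and negative on both sides of 493. The bins at a change of sign had the lowest control insulation, with a median of -0.89, against -0.55 in the positive and -0.59 in the negative compartment. In the positive compartment 180 of 422 were stronger in Erg KO (42.7%) and 14 weaker, with library medians of -0.72 and -0.69 in Erg KO and -0.47 to -0.63 in the controls. In the negative compartment 154 of 493 were weaker (31.2%) and 37 stronger, with medians of -0.53 and -0.55 in Erg KO and -0.58 to -0.63 in the controls. At a change of sign 211 of 648 were stronger (32.6%) and 47 weaker, against 26.2% and 15% of all bins there. In these medians, uncorrected for coverage, the Erg KO libraries lay below all controls in the positive and above them in the negative compartment. The controls chose the bins, so nothing is read from this alone.

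All bins of the same compartments moved alike, with 35.0% stronger and 11.2% weaker in the positive and 4.53% stronger and 36.4% weaker in the negative compartment. Correction for coverage left 21 weaker calls among the 493 boundary bins of the negative compartment and 71 stronger ones (14.4%). It brought the median change there from 0.08 to -0.04. Of all 9685 bins of that compartment it left 897 weaker and 650 stronger (6.71%), with the median going from 0.12 to -0.00. In the positive compartment it left 159 stronger calls, a share of 37.7% against 20% of all bins of that compartment, and at a change of sign 220, a share of 34% against 20.5%. Without Erg fl/fl control replicate 2 the uncorrected count at a change of sign was smaller, with no share of all bins given for that fit.

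The same classes were read at bins that a group outside the comparison had chosen. Of 484 CreT-chosen bins in the negative compartment, 97 (20%) were weaker and 39 (8.06%) stronger in Erg KO than in Erg fl/fl controls. The shares of all bins there were 29.8% and 4.11%. After correction for coverage 9 (1.86%) were weaker and 55 (11.4%) stronger, against 7.33% and 5.88% of all bins there. Of 442 such bins in the positive compartment 234 (52.9%) were stronger, against 31.6%, and of 663 at a change of sign 267 (40.3%), against 27.6%. Corrected for coverage these were 208 (47.1%) and 270 (40.7%), against 20.8% and 23.8% of all bins. Of 544 bins chosen on Erg fl/fl controls in the negative compartment, 116 (21.3%) were weaker in Erg KO than in CreT controls, against 28.9%. After the correction 13 (2.39%) were weaker, against 6.55% of all bins there. In the positive compartment 89 of 385 (23.1%) were stronger, against 27.4%, and at a change of sign 110 of 625 (17.6%), against 16.3%. Corrected for coverage these were 68 (17.7%) and 92 (14.7%), against 10.2% and 8.78% of all bins. Weaker calls in the negative compartment were thus fewer after the correction in both comparisons, among boundary bins and among all bins alike.

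**Figure D3:**
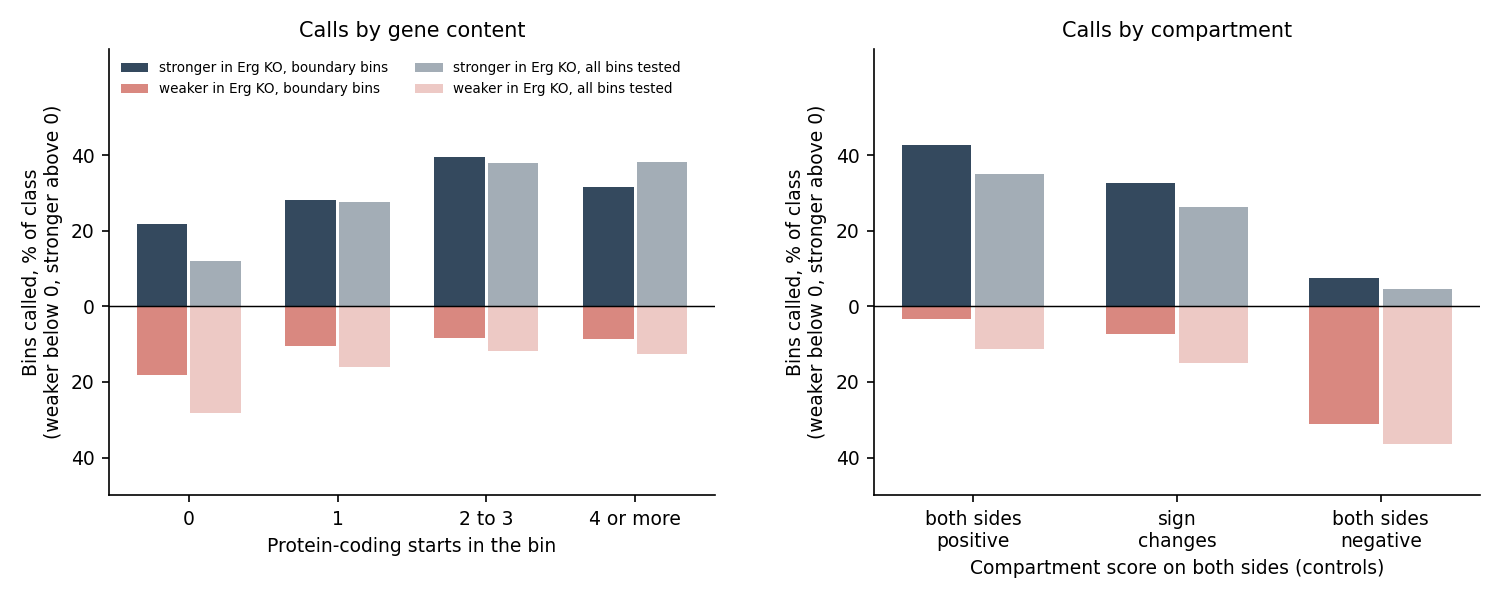
Share of bins called stronger (above 0) or weaker (below 0) in Erg KO than in both controls, in % of each class, for boundary bins of control cells (dark) and all bins tested (light), by protein-coding starts in the bin (left) and by the sign of the control compartment score on both sides (right), from edgeR without correction for coverage. Calls of stronger insulation reach 42.7% of boundary bins in the positive compartment, and calls of weaker insulation 31.2% in the negative compartment.

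The 10 largest changes towards stronger insulation among boundary bins that passed against both controls ran from -0.73 to -1.08, with standard errors of 0.08 to 0.15. All 10 also passed after correction for coverage, 8 lay where the compartment changes and none had a bin outside the coverage limits nearby. The largest was chr10:126799852-126899627, without a protein-coding start, at -2.72 and -2.34 in Erg KO, -1.67 and -2.01 in CreT controls and -1.66 and -1.06 in Erg fl/fl controls (change -1.08 ± 0.12 SE, edgeR adjusted p = 6.02e-06). Next came chr11:114599983-114699937, with the starts of Rpl38, a protein of the large ribosomal subunit, and Ttyh2, a membrane protein of the tweety family. It had -2.15 and -2.17 in Erg KO, -1.34 and -1.59 in CreT controls and -1.10 and -0.71 in Erg fl/fl controls (change -1.05 ± 0.10 SE, edgeR adjusted p = 2.99e-06). In this bin contacts across the boundary were thus lowest in Erg KO, intermediate in CreT controls and highest in Erg fl/fl controls.

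Others of the 10 hold genes of varied roles. The bin chr14:79600030-79699995 holds the start of Cnmd, a cartilage protein that inhibits vessel growth, and had -1.92 and -2.05 in Erg KO and -0.70 to -1.49 in the controls. The bin chr17:36199879-36299704 in the MHC holds the starts of Rpp21, a subunit of RNase P, Trim39, a ubiquitin ligase, and H2-M10.2, a non-classical class I gene, and had -1.42 and -1.14 in Erg KO and -0.30 to -0.83 in the controls. The bin chr12:112500224-112599958, with the starts of Tmem179 and the actin-nucleating formin Inf2, had -1.08 and -1.30 in Erg KO and -0.09 to -0.81 in the controls. The bin chr10:123200076-123299924, with the start of Fam19a2, which encodes a secreted chemokine-like protein, had -1.94 and -1.85 in Erg KO and -0.81 to -1.51 in the controls. In each of the 10 bins Erg KO was lower than any control, which follows in part from choosing the largest changes.

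The 10 largest changes towards weaker insulation ran from 0.51 to 0.93, but 5 of them had a bin outside the coverage limits within 5 bins, and 5 passed after correction for coverage. The largest lay among zinc finger genes on chromosome 4, at chr4:146425376-146499188 with the start of Zfp992, where Erg KO had -3.15 and -2.72 and the controls -3.66 to -4.28 (change 0.93 ± 0.24 SE, edgeR adjusted p = 0.00516). Corrected for coverage its change was 0.31, with an edgeR adjusted p of 0.34. It was 0.60, and no longer a call, without the second replicate of Erg KO or of the Erg fl/fl control. These are the only male libraries, and with sex in the model the 2 fits rest on the same female libraries. In the zinc finger bin chr4:147099542-147199893 (Zfp991) the change was 0.88, and 0.11 corrected for coverage. The largest that also passed after correction was chr5:109399829-109500085, with the start of the vomeronasal receptor gene Vmn2r17, at -0.71 and -0.96 in Erg KO, -1.51 and -1.54 in CreT controls and -1.38 and -1.74 in Erg fl/fl controls (change 0.78 ± 0.08 SE, and 0.38 corrected for coverage). The bin chr10:5900747-6000016, with the start of Rgs17, a regulator of G protein signalling, had -0.23 and -0.59 in Erg KO and -0.79 to -1.19 in the controls, a change of 0.62 and of 0.43 corrected for coverage. The bin chr6:85100258-85199644 (Spr, an enzyme of tetrahydrobiopterin synthesis, and the homeobox gene Emx1) had -0.38 and -0.32 in Erg KO and -0.58 to -1.19 in the controls. In each of the 10 bins Erg KO was higher than any control, which follows in part from choosing the largest changes.

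**Figure D4:**
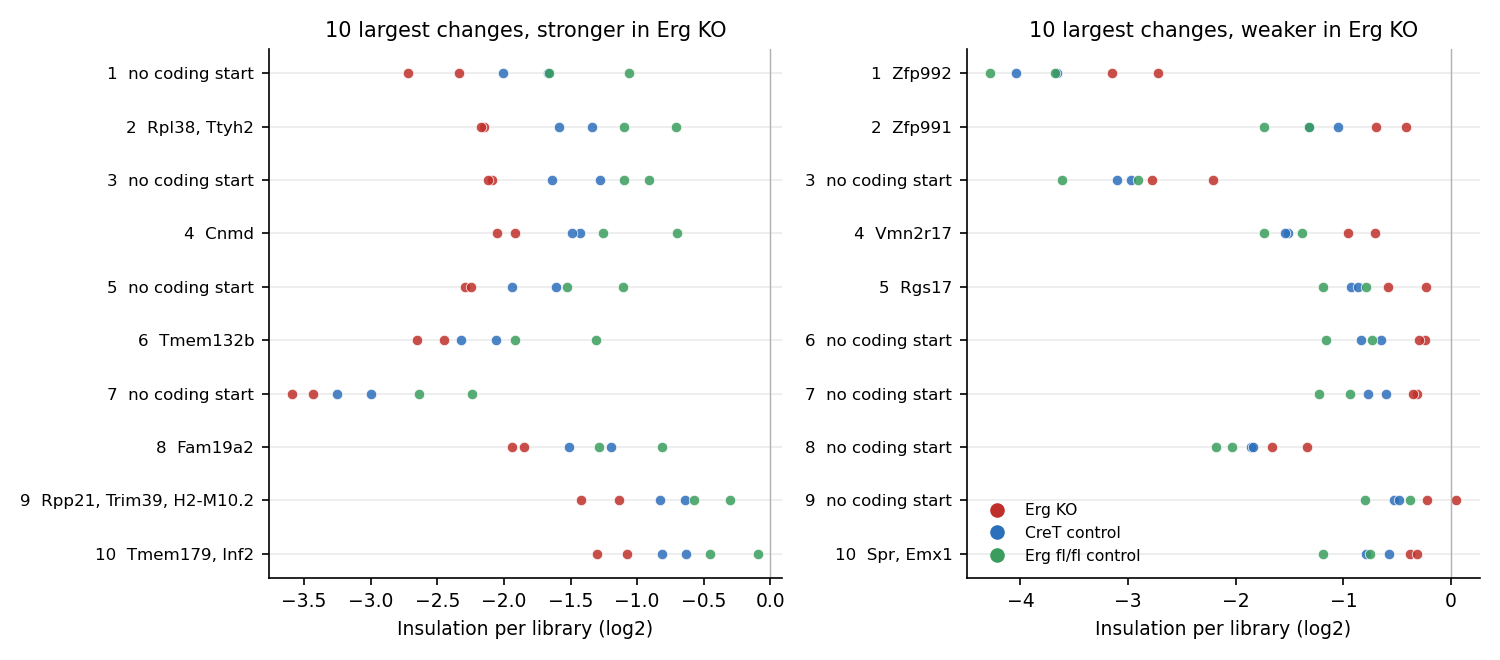
Insulation (log2) in each of the 6 libraries, 1 point each, for the 10 boundary bins with the largest changes towards stronger (left) and weaker (right) insulation in Erg KO, ranked by the change against both controls and named by the protein-coding genes that start in them. Erg KO points lie below all control points in the left panel and above them in the right panel.

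The boundary bin nearest to Erg lay 614 kb from its start, at chr16:96200591-96300010 with the start of B3galt5, and had -0.58 and -0.52 in Erg KO and -0.36 to -0.65 in the controls. The nearest to Ebf1, a B-lineage transcription factor, lay 17.3 kb from its start, at chr11:44499820-44599997 with the start of Rnf145, and had -0.51 and -0.32 in Erg KO and -0.29 to -0.45 in the controls. The nearest to Pax5, which fixes B-cell identity, lay at chr4:44299933-44400093 with the start of Melk, and had -0.40 and -0.37 in Erg KO and -0.21 to -0.43 in the controls. At all 3 the groups overlapped, with edgeR adjusted p of 0.382, 0.189 and 0.448.

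Igh, the heavy chain locus, held a boundary bin at chr12:113800138-113899851, with -0.80 and -0.79 in Erg KO, -0.59 and -0.73 in CreT controls and -0.41 and -0.34 in Erg fl/fl controls (change -0.29 ± 0.08 SE, edgeR adjusted p = 0.00529, and 0.0744 with DESeq2). The bins at its ends, chr12:113099892-113200180 (Crip1, Crip2, Tedc1, Tmem121) and chr12:115999777-116100050 (Zfp386, Vipr2), did not pass, with -1.25 and -1.27 in Erg KO and -1.11 to -1.26 in the controls at the first, and -0.87 and -0.87 in Erg KO and -0.80 to -0.99 in the controls at the second. The next boundary bin after the locus, chr12:116600051-116700009, had -1.06 and -0.84 in Erg KO and -0.38 to -0.81 in the controls (change -0.42 ± 0.08 SE, edgeR adjusted p = 0.000491). In Igk, a kappa light chain bin at chr6:69700345-69800004 had -0.40 and -0.39 in Erg KO and -0.74 to -0.76 in all controls, a weaker insulation by 0.35 ± 0.07 (SE, edgeR adjusted p = 0.000779), which was 0.19 with an edgeR adjusted p of 0.0512 after correction for coverage. TMM scaling of its counts, without the local mean, gave a change of 0.07 with an edgeR adjusted p of 0.526. A bin at chr6:67800263-67899573 in the same locus had -0.91 and -0.91 in Erg KO and -0.30 to -0.81 in the controls. Before Igl, the lambda light chain locus, the bin chr16:18899911-19000068 had -1.24 and -1.14 in Erg KO and -0.40 to -0.94 in the controls (change -0.54 ± 0.08 SE, edgeR adjusted p = 7.61e-05). The 2 boundary bins inside Tcra had insulations of -2.95 and -2.96 in the summed controls beside bins outside the coverage limits and did not pass, although one of them did after correction for coverage (change -0.60, edgeR adjusted p = 0.0116). The bin at the edge of Tcrb and those on either side of Tcrg did not pass without the correction either.

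Of the list genes in boundary bins, those of Bcl11b and Klrb1c passed. The bin of Bcl11b, a transcription factor of T-cell commitment, had -1.30 and -1.16 in Erg KO and -0.78 to -1.19 in the controls (change -0.32 ± 0.08 SE, edgeR adjusted p = 0.00377). That of the NK cell receptor gene Klrb1c had -1.07 and -1.32 in Erg KO and -0.50 to -1.12 in the controls (change -0.36 ± 0.10 SE, edgeR adjusted p = 0.00894). In both bins 1 Erg KO library lay within the range of the controls. Both calls were lost when the second replicate of Erg KO or of the Erg fl/fl control was left out. These are the only male libraries, so with sex in the model both fits rest on the same female libraries and are 1 check. Of the 6 bins with ribosomal protein genes 2 were stronger and 1 weaker, the last being that of Rpl8, whose change of 0.32 was 0.11 without Erg KO replicate 1. TMM scaling of its counts, without the local mean, gave -0.24. Of the 31 odorant receptor bins 6 (19.4%) were stronger and 9 (29%) weaker, and of the 13 vomeronasal receptor bins 0 were stronger and 4 (30.8%) weaker, beside 20.6% and 22.4% of all bins. Corrected for coverage, 11 odorant receptor bins were stronger and 1 weaker, and 3 and 1 of the vomeronasal receptor bins. Under this correction 14.6% of all bins were stronger and 11.2% weaker, and 28.7% and 2.91% of the 1581 control boundary bins.

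Lists of boundary bins were also drawn up separately for each group, from different depths. Of the 1581 control boundary bins, 1089 (68.9%) were also boundary bins of Erg KO, and 1337 (84.6%) had one within 1 bin, which is 80.8% of the Erg KO list. Between the controls, 68.4% of the CreT list and 69.9% of the Erg fl/fl list were the same bin, and 82.9% and 84.8% lay within 1 bin. The CreT and Erg KO lists shared 69.8% of the first and 67.9% of the second, and the Erg fl/fl and Erg KO lists 62.3% and 59.3%. Within 1 bin these were 85.5% and 83.2%, and 79.6% and 75.8%. The Erg fl/fl list thus shared fewer bins with Erg KO than the CreT list did, a difference that was not tested. Contact between neighbouring boundary bins 4 to 20 bins apart, over the mean at the same distance, was 1.58 and 1.53 in Erg KO and 1.56 to 1.58 in the controls, over 1218 pairs. With both bins moved 2 bins along the chromosome, so that the pair straddles a boundary, it was 0.834 and 0.832 in Erg KO, 0.857 and 0.839 in CreT controls and 0.875 and 0.899 in Erg fl/fl controls. Moved 2 bins the other way it was 0.842 and 0.846, 0.863 and 0.845, and 0.866 and 0.910 in the same order of groups. Erg KO was thus below all controls with the first shift, and overlapped with CreT controls with the second.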

How the data were processed

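In situ Hi-C read pairs were aligned by the authors to mm10 with diffHic, and the deposited values are raw counts of read pairs for each bin pair, with bins near 100 kb that end at restriction sites. No depth or distance normalization had been applied. The bins ended where 19 of 19 GRCm38 autosomes end, and 0 columns were left unmapped to a sample. Counts across each bin (at least 10 over the 6 libraries, which all 23501 bins with a value exceeded) were tested with edgeR 4.0.16 in R 4.3.3 with the log of the local mean as offset, group and sex as terms and an adjusted p threshold of 0.05. limma 3.58.1 (on insulation, with 0.5 added to counts) and DESeq2 1.42.0 were alternatives, beside window sizes, thresholds, coverage correction, thinning, subtraction of the mean count between chromosomes, covariates and leaving out each library. Fits were tested on simulated data. Gene starts came from GENCODE M21. Python 3.11.15 with numpy 2.4.6 and pandas 2.3.3 did the rest.

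The members and lists were chosen with earlier results of these data known. Named bins were the 10 lowest, the 10 largest changes in each direction that passed with the same sign against each control, those next to Erg, Ebf1, Pax5 and 6 antigen receptor loci, those at the threshold, and list genes. Sequence from 1 autosome is not reported here. Replicate numbers are not known to pair the samples. The p-values rest on the spread between biological replicates that is left after the sex term, pooled over the genotypes. Erg KO and the Erg fl/fl control each had 1 female and 1 male library. A difference shared by these pairs was taken up by sex and did not count as spread. Counts of read pairs carry counting error. Intervals for the ratios of gene starts and of CTCF matches cover the counting error of starts and matches alone.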

Additional observations from a re-analysis of the deposited data

How the results depend on the processing

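The number of boundary bins was 1046 with 10 bins before and after. The median difference of Erg KO from the controls was -0.01 with a local mean of 81 bins, -0.12 with coverage-corrected counts and -0.08 to -0.06 when single libraries were left out. At CreT-chosen bins (against Erg fl/fl) it was -0.16 with coverage correction and -0.14 to -0.09 without single libraries, and at Erg fl/fl-chosen bins (against CreT) -0.06 to -0.02.

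Weaker bins numbered 111 with 10 bins, 92 and 392 with local means of 21 and 81 bins, 52 with coverage correction and rechosen bins, 46 with it and the same bins, 142 with a threshold of -0.5, 60 with DESeq2, 109 with group alone, 140 with the replicate block, 83 at Erg KO-chosen bins and 114 to 237 without single libraries. Stronger bins numbered 177 with DESeq2, 277 with group alone, 680 at Erg KO-chosen bins, 314 with the replicate block and 281 to 548 without single libraries, the lowest without Erg fl/fl control replicate 2.

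Against Erg fl/fl at CreT-chosen bins, weaker calls were 28 with coverage correction, 27 with DESeq2, 85 with group alone and 70 to 138 without single libraries, and stronger calls 239 with DESeq2 and 277 to 591. Against CreT at Erg fl/fl-chosen bins, weaker calls were 41 with coverage correction, 17 with DESeq2, 0 with group alone, 54 with the replicate block and 79 to 294 without single libraries, and stronger calls 31 with DESeq2, 428 with TMM scaling, 0 with group alone, 56 with the block and 69 to 251. Between the controls there were 18 calls with the replicate block and 1 to 316 without single libraries.

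By class, leaving out single libraries gave 168 to 333 stronger bins with a start, 113 to 215 stronger and 79 to 148 weaker without one, 124 to 222 stronger in the positive compartment, 84 to 161 weaker in the negative one and 123 to 271 stronger where the compartment changes. Coverage correction left 27 weaker bins without a start and 21 in the negative compartment. The ratio of gene starts was 1.27 with 10 bins, 1.34 and 1.04 with local means of 21 and 81, and 1.38 with coverage correction, and that of CTCF matches 1.97, 1.86, 1.49 and 1.91.

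The bin chr11:100200149-100300339 had changes of -0.26 with TMM scaling, -0.05 with 10 bins and -0.02 to 0.50 without single libraries, and that of Rpl8 had -0.24 with TMM scaling. The TMM values are changes in scaled counts across the bin and not in insulation. Of 696 values for 41 single bins, 613 kept direction and call, 79 lost the call and 4 turned. The causes were not tested. Same-numbered libraries did not deviate together in all pairs of genotypes. The correlation was -0.046 for Erg KO with the CreT control and -0.381 for the CreT with the Erg fl/fl control. It was 0.295 for Erg KO with the Erg fl/fl control, where replicate 1 was female and replicate 2 male in both. The block thus rests on a shared number, which coincides with sex in that pair. Settings for the pairwise, class and motif results, and for single bins, were chosen after seeing the data. With 2 libraries in a genotype, leaving 1 out assumes that the lone library varies like the others.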

Other observations

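Of the 1654 boundary bins of Erg KO, 317 (19.2%) had no control boundary bin within 1 bin. Their median insulation was -0.48 and -0.45 in Erg KO and -0.19 to -0.35 in the controls, they held 1.30 protein-coding starts per bin, and 41% lay with the positive compartment on both sides. Of the 1581 control boundary bins, 244 (15.4%) had no Erg KO boundary bin within 1 bin, with medians of -0.29 and -0.34 in Erg KO and -0.43 to -0.54 in the controls. These held 0.668 starts per bin, and 65.2% lay with the negative compartment on both sides. The controls differed from each other in a like way, since the 275 bins found for CreT and not for Erg fl/fl held 1.16 starts per bin and the 239 found for Erg fl/fl and not for CreT held 0.657. These lists were chosen on the values given, which are a description.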
